A study of Mus musculus with 3 samples.

Results

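The Slc22 family of membrane transporters was examined in fetal kidneys of CD1 mice at 13.5 dpc (days post coitum) and in metanephroi, the rudiments of the permanent kidney, at 11.5 dpc. The genes were taken from a list of 9 symbols, and an array feature counted where the platform annotation gave exactly 1 symbol equal to a listed one. That gave 8 genes with 8 features, each with a value on all 3 arrays, out of 19015 rows of the whole table. Slc22a3 had no such feature and was not analysed here. The family was chosen by the log2 ratios of these same arrays, among which Slc22a16 already stood near the top. Its ratios are therefore given as a description, with no test.

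Both ages were normal tissue from pools of both sexes, collected by microdissection, and neither carried a treatment or a transgene. The sources used here do not state how many embryos made up a pool. RNA was amplified, labelled through amino allyl groups and hybridised to 2-channel Compugen mouse oligonucleotide arrays, with the 13.5 dpc material in channel 2 and the 11.5 dpc material in channel 1. The labels give red/green as the dye order of arrays 1 and 2 and green/red as that of array 3. Separate RNA extracts for the 3 arrays are not stated, so the spread between them may be technical.

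Slc22 proteins are polyspecific carriers of small charged molecules. In the adult kidney, members in the basolateral membrane of the proximal tubule take organic cations and anions from blood, and efflux pumps and exchangers at the brush border pass them into urine. Other members carry carnitine and related zwitterions, and some have roles outside excretion. At 13.5 dpc the first nephrons are taking shape and no mature proximal tubule exists yet, and at 11.5 dpc the ureteric bud has only begun to grow into the mesenchyme.

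Each value is a log2 ratio of both ages on 1 array, likely 11.5 over 13.5 dpc. In the labels this order of ages goes with the dye order red/green, but the direction is not settled, nor is that of array 3. A positive ratio is read as lower at 13.5 than at 11.5 dpc, and every direction turns if that reading is wrong. A ratio holds no level: it does not show whether a gene was expressed, and spot brightness was not used here, so a ratio near 0 can come from a dim spot as well as from equal levels. In whole organs, fewer cells of a type and less RNA per cell cannot be told apart.

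Of the 8 measured genes, Slc22a16 alone had a ratio of 2-fold or more, with 1 sign, on every array, and the other 7 stayed within 1.5-fold on each array. Over the whole set of 19015 rows, 130 met that rule (0.684%), and 0.247% were so in the direction of Slc22a16. The count of 1 in 8 rests on the gene for which the family was chosen, so nothing is read from that comparison. Signs agreed on all arrays for 3 of the 8 genes, Slc22a16 on the positive side and Slc22a8 and Slc22a17 on the negative side. With the sign of array 3 turned the count was 2, and the genes were Slc22a2 and Slc22a6, both positive. With each array centred on its median the count stayed 3. Slc22a2 and Slc22a17 lay above the median of array 3 (-0.09), so that centring makes both positive there. Over all rows as deposited, signs agreed for 35.3%, with 16.8% positive and 18.5% negative throughout. The median of the 8 mean log2 ratios was -0.039, against -0.008 over all rows. Limma passed 0 of the 19015 rows at an adjusted p under 0.05 (0%), with 1757 rows at an unadjusted p under 0.05; an ordinary one-sample test also passed 0, with 1829 rows.

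**Figure D1:**
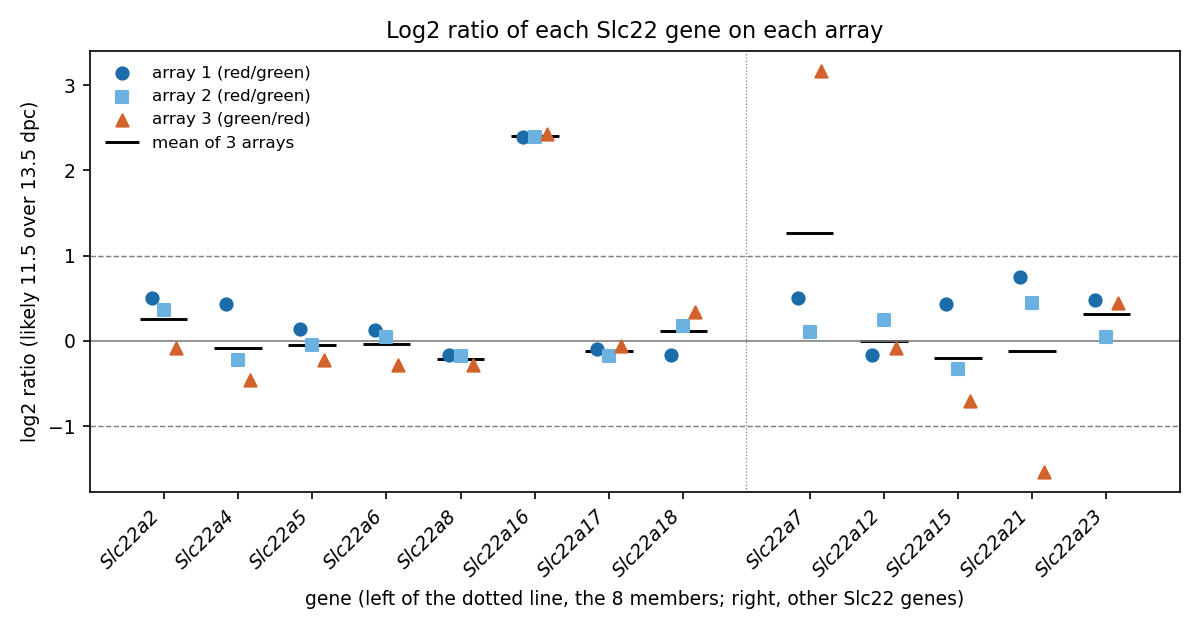
Log2 ratio (vertical axis, likely 11.5 over 13.5 dpc) of each Slc22 gene on arrays 1, 2 and 3, with the black line at the mean and dashed lines at a 2-fold difference. The 3 points of Slc22a16 lie together between 2.39 and 2.43, the other 7 members lie between -0.46 and 0.50, and Slc22a7 and Slc22a21, right of the dotted line, owe their extreme values to array 3.

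Slc22a16 encodes a carrier known in human testis as a carnitine transporter and in human blood cells for uptake of the drug doxorubicin. Its log2 ratio was 2.39 on array 1, 2.39 on array 2 and 2.43 on array 3, which are ratios of 5.25, 5.25 and 5.40. All 3 arrays put it lower at 13.5 dpc, and the array with the other dye order gave a value close to both others, with a range of 0.042 log2 units over the 3. The mean was 2.41 ± 0.02 (SD, n = 3 arrays), a 5.3-fold ratio. By mean, 11 of the 19015 rows stood above it. Its place within each array differed more than its value: 19 rows were higher on array 1, 39 on array 2 and 555 on array 3, whose log2 ratios were the most widely spread (SD 0.97, against 0.56 and 0.79).

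As deposited, the arrays agreed closely on Slc22a16. Of the 46 rows with a mean log2 ratio of at least 2, Slc22a16 had the smallest SD, and the median SD of those rows was 2.04. A row can pass that cut through 1 extreme array, which also gives it a large SD. Slc22a16 was itself picked by these ratios, so nothing is read from that comparison. In the whole table the median SD was 0.34, and 83 rows (0.436%) had a smaller SD than Slc22a16. With the sign of array 3 turned its mean was 0.784 and its SD 2.79, and 99.3% of rows had a smaller SD, so the close agreement depends on the direction of that array. The agreement is also one of deposited log2 values, from arrays of unequal spread, and quantile normalization moved the mean to 2.85. Its single feature means that no second oligonucleotide checks the value.

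**Figure D2:**
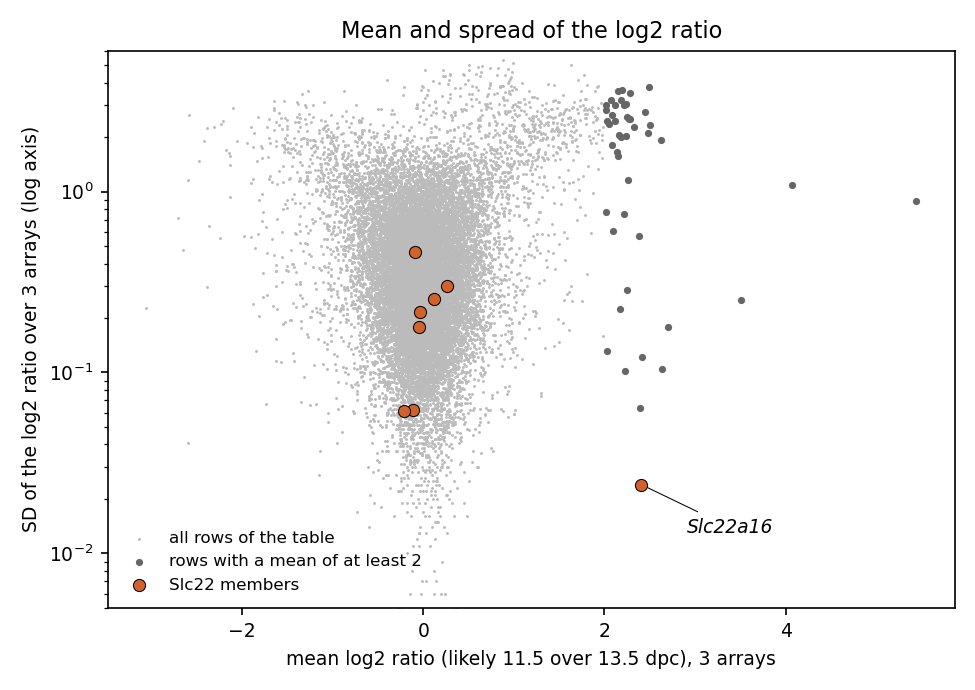
Mean log2 ratio (horizontal axis, likely 11.5 over 13.5 dpc) and SD over 3 arrays (vertical log axis) of all 19015 rows in pale grey, of the 46 rows with a mean of at least 2 in dark grey, and of the 8 Slc22 members in orange. Slc22a16 lies below every other dark point, while the other members lie within the cloud around 0.

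The 5 named genes nearest to Slc22a16, by Euclidean distance between log2 ratios over the 3 arrays, were Art5 (distance 0.069), Klra2 (0.141), Slc20a2 (0.355), Gfra3 (0.436) and Ptger3 (0.510). Art5 encodes an ADP-ribosyltransferase, and its log2 ratios were 2.38, 2.33 and 2.45. Slc20a2 encodes a sodium-dependent phosphate carrier, and it had 2.30, 2.27 and 2.11. Gfra3, a co-receptor for the ligand artemin, had 2.66, 2.72 and 2.52, while Ptger3, a receptor gene for prostaglandin E2, had 2.21, 2.55 and 1.98. For Klra2, of the natural killer cell lectin-like receptors, the values were 2.33, 2.37 and 2.55. Each of the 5 was at least 3-fold lower at 13.5 dpc on every array. Likeness over 3 values was the basis of this choice, and nothing about shared function follows from it.

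Features are numbered along the oligonucleotide library, and the surroundings of Slc22a16 in that order were examined. Among the 100 features nearest to it in that order, mean log2 ratios ran from -1.14 to 1.55 with a median of 0.039. None was above Slc22a16, and 8 had a mean of at least 1. Among them was Hbb-y, directly before Slc22a16, with 1.173, while Slc25a23, directly after it, had 0.576. Over all rows, a mean of 1.036, that of Foxa2, stood at percentile 97.6, and all 8 were above that mean. Means of at least 1 were thus more common in this stretch, counted by single features, than over all rows, which are averaged by symbol. Such a mean can rest on 1 array: Slc22a7, also among the 8, had 0.50, 0.11 and 3.17. Hbb-y, which is on the erythroid list below, had 0.19, 2.23 and 1.10. The running median of the library at its position was 0.09, 0.06 and -0.07 on arrays 1, 2 and 3, and subtracting it left 2.30, 2.33 and 2.51. A running median does not register a few scattered high features, and a part of library position in the ratio was not tested.

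**Figure D3:**
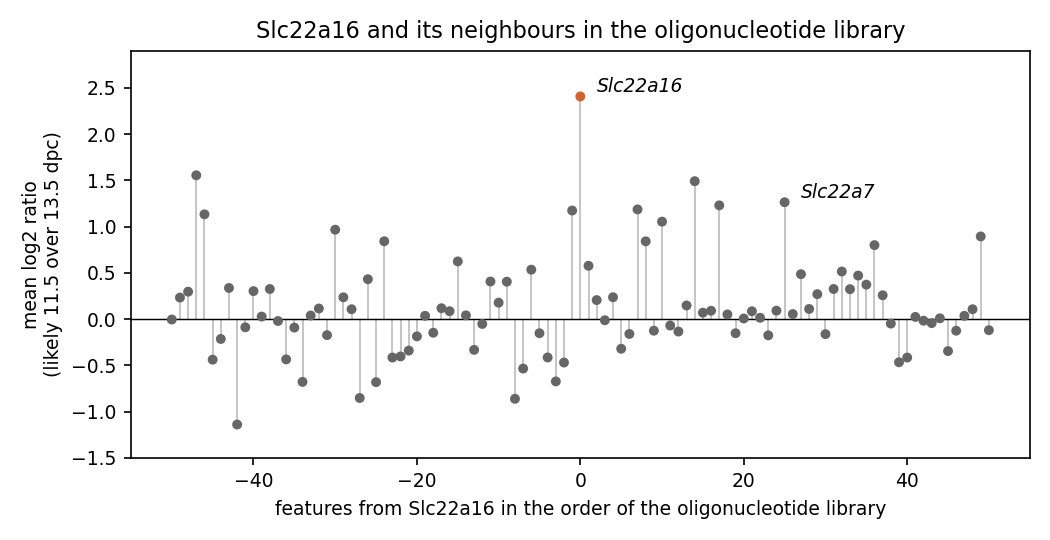
Mean log2 ratio over 3 arrays (vertical axis, likely 11.5 over 13.5 dpc) of Slc22a16, in orange, and of the 50 features on each side of it in the order of the oligonucleotide library (horizontal axis). The neighbours lie between -1.14 and 1.55, and Slc22a7, 25 features away, has 1.26.

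The stretch of 250 bases before the annotated start is shown for Slc22a16, the 1 member far from 0, and for Slc22a8 and Slc22a6, neighbouring genes near 0 that carry organic anions. All are on the plus strand of GRCm38.p6, from RefSeq, and run 5′ to 3′. Capitals mark matches on either strand to 5 short motifs. They are TATAAA for the core promoter element of that name, CCAAT for the box bound by nuclear factor Y, GGGCGG for the box bound by Sp factors, AGATAA for the site of GATA factors, and GTTAAT for one arm of the site of HNF1, a factor of liver and kidney.
Slc22a16, chr10:40570112-40570361: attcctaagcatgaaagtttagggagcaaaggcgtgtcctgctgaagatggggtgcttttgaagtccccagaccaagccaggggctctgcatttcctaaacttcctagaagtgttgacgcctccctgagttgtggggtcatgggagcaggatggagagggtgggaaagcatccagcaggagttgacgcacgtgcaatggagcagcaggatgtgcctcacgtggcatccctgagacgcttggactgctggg
Slc22a8, chr19:8592932-8593181: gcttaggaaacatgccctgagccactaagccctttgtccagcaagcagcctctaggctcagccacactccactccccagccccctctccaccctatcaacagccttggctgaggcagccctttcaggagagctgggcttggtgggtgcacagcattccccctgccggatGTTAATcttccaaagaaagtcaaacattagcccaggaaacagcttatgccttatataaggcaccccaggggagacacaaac
Slc22a6, chr19:8617746-8617995: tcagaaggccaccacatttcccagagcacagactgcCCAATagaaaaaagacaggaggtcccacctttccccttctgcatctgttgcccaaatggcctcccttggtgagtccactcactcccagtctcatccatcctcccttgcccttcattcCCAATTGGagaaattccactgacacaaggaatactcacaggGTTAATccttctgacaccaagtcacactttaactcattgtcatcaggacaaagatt

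The window of Slc22a16 held none of the 5 motifs. GTTAAT stood 81 bases before the start of Slc22a8 and 56 bases before that of Slc22a6, and in no window of the other 7 listed genes. It was present in 6.44% of the 32817 promoter windows of the table. CCAAT stood in the windows of Slc22a6, where 2 of its 3 matches overlap on opposite strands, and of Slc22a2 (33.8% of all windows). GGGCGG stood in those of Slc22a4 and Slc22a5 (32.7%) and AGATAA in those of Slc22a17 and Slc22a18 (9.99%). TATAAA stood in none of the 9 (12.4% of all windows). Only these exact letters were searched. Variants such as TATATAAG, which stands near the end of the Slc22a8 window, were neither marked nor counted. The windows of Slc22a5 and Slc22a4 were rich in CpG, with 30 and 26 CpG sites, against 6 in that of Slc22a16, 1 in that of Slc22a8, 0 in that of Slc22a6 and a median of 6 over all windows. Such a match describes letters in this window and does not show a working site.

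The other carnitine carriers did not share the ratio of Slc22a16. Slc22a5 encodes the sodium-dependent carnitine transporter whose loss in human patients causes systemic carnitine deficiency. Its log2 ratios were 0.14, -0.05 and -0.22 on arrays 1, 2 and 3, with a mean of -0.043 ± 0.18 (SD, n = 3 arrays). Slc22a4, its neighbour, encodes a carrier of the antioxidant ergothioneine. It had 0.43, -0.23 and -0.46, and a mean of -0.087 ± 0.46, the widest spread of the 8 genes. Both genes thus took opposite signs on arrays 1 and 3. Slc22a21, which lies between them on chromosome 11 and encodes another carnitine carrier, had 0.75, 0.45 and -1.54, the last on the array of the other dye order.

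Of 18 genes of carnitine synthesis and fatty acid entry into mitochondria, 14 were measured. Positive on every array was 1, negative on every array were 3, and none was 2-fold throughout. Over all rows, 16.8% were positive and 18.5% negative on every array, and 0.684% were 2-fold throughout. The counts of each list below can be set against these shares. The list's median was 0.014, against -0.008 over all rows. Cpt1a, the carnitine palmitoyltransferase that gates entry into mitochondria, had 0.04, 0.01 and 0.02. Tmlhe, the first enzyme of carnitine synthesis, had -0.46, -0.41 and -0.01, and Cpt2, the inner membrane partner of Cpt1a, had -0.11, -0.31 and -0.20.

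Slc22a2 encodes the main organic cation importer of the proximal tubule. Its log2 ratios were 0.50, 0.36 and -0.08, with a mean of 0.26 ± 0.30 (SD, n = 3 arrays), the second highest of the 8. The mean over the red/green arrays was 0.43, while the green/red array lay just below 0. On chromosome 17 Slc22a2 lies near Igf2r, the imprinted gene of a receptor that clears IGF2. Igf2r was negative on all arrays, with -0.28, -0.42 and -0.54. Plg, the plasminogen gene on the other side of Slc22a2, had mixed signs with 1.78, -0.64 and -0.88, as did Map3k4, a kinase gene beyond Plg, with 0.33, -0.02 and -0.60. A list of 3 measured genes of this region, Igf2r, Plg and Mas1, had a median of -0.258. Among 14 genes of monoamine handling, a task of organic cation carriers in many tissues, 8 were measured with a median of -0.108, which was 0.073 without array 1 and -0.223 without array 3. None was positive and 2 were negative on all arrays: tyrosine hydroxylase, Th (-1.29, -1.25 and -0.57), and the serotonin transporter gene Slc6a4 (-0.23, -0.06 and -0.43).

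Slc22a6 and Slc22a8 lie next to each other on chromosome 19 and encode the main organic anion importers of the proximal tubule, which exchange drugs and metabolites for dicarboxylates. Slc22a8 had -0.16, -0.18 and -0.28, with a mean of -0.208 ± 0.06 (SD, n = 3 arrays), the lowest of the 8. With the sign of array 3 turned its mean was -0.023, and Slc22a17 (-0.073) and Slc22a18 (-0.108) lay below it. As deposited, all 3 arrays placed it slightly higher at 13.5 dpc, and its SD was smaller than that of all but 3.19% of rows. Slc22a6 had 0.13, 0.04 and -0.28, with a mean of -0.036 ± 0.22. On array 3 both genes stood at -0.28, while on arrays 1 and 2 Slc22a6 stood 0.30 and 0.22 log2 units above Slc22a8. By distance over the 3 arrays, the most alike pair among the members was Slc22a5 and Slc22a6 (0.108), followed by Slc22a8 and Slc22a17 (0.225).

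The efflux pumps, exchangers and scaffold proteins that work with these importers numbered 20, of which 16 were measured. Of these 3 were positive and 2 negative on all arrays, 0 were 2-fold throughout, and the median was -0.008, the same as over all rows. Abcc2, an apical pump for organic anion conjugates, had -0.79, -0.35 and -0.27. Abcc1, a pump of the basolateral membrane, had -0.15, -0.34 and -0.54. On the positive side, the citrate carrier gene Slc13a2 had 1.05, 0.46 and 0.07, and Abcc6 had 0.63, 0.23 and 4.13, so array 3 set its mean. The Slco family of organic anion carriers, with 10 of 15 genes measured, had a median of -0.010. Slco3a1 was negative throughout (-0.49, -0.68 and -0.71) and Slco1a1 positive throughout (0.56, 0.20 and 0.41), and the other 8 had mixed signs.

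Slc22a17 encodes a receptor for lipocalin 2, a protein that carries iron in siderophores. Its log2 ratios were -0.10, -0.18 and -0.06, with a mean of -0.114 ± 0.06 (SD, n = 3 arrays). As deposited, the arrays agreed on a slightly higher level at 13.5 dpc, and 3.27% of rows had a smaller SD. Its value on array 3 lay above the median of that array over all rows (-0.09). Centring array 3 on its median therefore makes the value positive there, and the single sign is lost. Of 9 genes of lipocalin 2 and iron uptake 8 were measured, with a median of 0.185. Positive on all arrays were 3, and none was negative on all. Among the positive ones were the transferrin receptor gene Tfrc (0.35, 0.05 and 0.53) and the ferritin light chain gene Ftl1 (0.39, 0.10 and 0.10). Tfrc is also on the erythroid list below.

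Slc22a18 encodes an imprinted carrier expressed from the maternal allele. Its log2 ratios were -0.16, 0.17 and 0.34, with a mean of 0.115 ± 0.25 (SD, n = 3 arrays). Positive on array 3, it differed there from the other members apart from Slc22a16, which were all negative. Its neighbours on chromosome 7 are Cdkn1c, an imprinted gene of a cell cycle inhibitor, and Phlda2, an imprinted gene that limits growth of the placenta. Cdkn1c had 0.27, -0.01 and -0.02, and Phlda2 had -0.29, -0.12 and -0.26. Over the wider imprinted cluster 15 of 17 genes were measured, 1 positive and 6 negative on all arrays, with a median of -0.221. The shares over all rows were 16.8% positive and 18.5% negative. The most negative of those 6 by mean were Dhcr7, a gene of cholesterol synthesis, with -0.27, -0.34 and -0.63, and Tssc4, with -0.36, -0.32 and -0.49. That median was -0.064 once the library's running median had been taken off each array.

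Apart from Slc22a16, the members' order depended on the array. Slc22a16 ranked first on each array. Slc22a2 ranked second on arrays 1 and 2 and below Slc22a18 and Slc22a17 on array 3. Slc22a18 ranked second on array 3 and last on array 1, level with Slc22a8 there at -0.16. The differences between neighbours in the order of means, from Slc22a2 (0.26) through Slc22a18, Slc22a6, Slc22a5, Slc22a4 and Slc22a17 to Slc22a8 (-0.208), were at most 0.151 log2 units. Each such step was smaller than the larger SD of the 2 genes it separates, apart from the last, 0.094 between Slc22a17 and Slc22a8. Array 3 was opposite in sign to arrays 1 and 2 for 2 of the 8 members, Slc22a2 and Slc22a6, and for 29.2% of all rows.

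The remaining Slc22 genes with values on all arrays were 5, none of them 2-fold throughout. Slc22a7, an organic anion carrier gene of liver and kidney, had 0.50, 0.11 and 3.17, with a mean of 1.26 ± 1.66 (SD, n = 3 arrays), which was 0.31 over arrays 1 and 2. Slc22a23 had 0.48, 0.04 and 0.44. Slc22a12, of the urate exchanger, had -0.17, 0.25 and -0.08, and Slc22a15 had 0.43, -0.33 and -0.70. Slc22a26 had 0.85 and 0.70 on arrays 1 and 2 and no value on array 3. Together with Sv2a and Sv2c, relatives found in synaptic vesicles, 7 of 21 further listed genes had values on all arrays, 2 of them positive and 0 negative throughout.

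**Figure D4:**
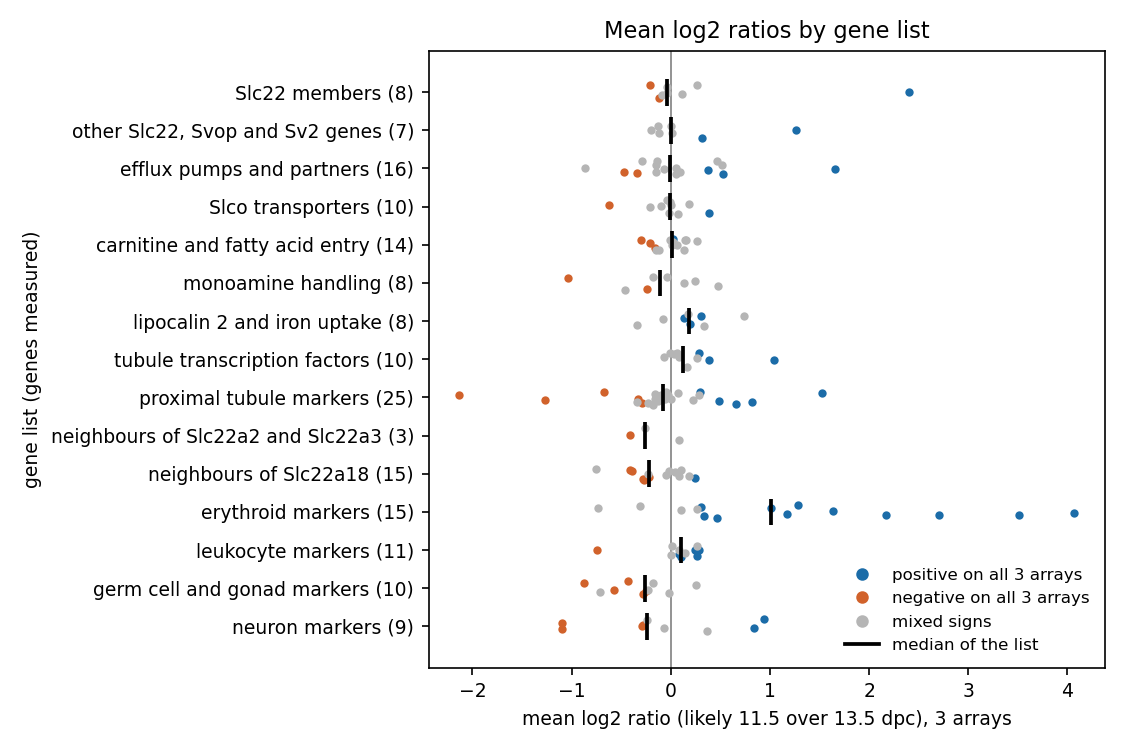
Mean log2 ratio over 3 arrays (horizontal axis, likely 11.5 over 13.5 dpc) of each measured gene, by gene list (vertical axis, number measured in brackets), with the list's median as a black line. Blue points were positive and orange points negative on all 3 arrays, and grey points had mixed signs. Slc22a16 is the blue point at 2.41 in the top line, and the erythroid list has the highest median, 1.01.

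Proximal tubule markers, the cells in which several of these transporters work later, gave no common direction. Of 30 listed genes 25 were measured, 5 positive and 5 negative on all arrays, with a median of -0.081. The shares over all rows were 16.8% positive and 18.5% negative, close to those of this list. Car4, a membrane carbonic anhydrase, had -1.10, -3.93 and -1.37, and the brush border peptidase gene Anpep had -0.59, -1.56 and -1.65, both higher at 13.5 dpc. Cyp4b1 had 1.03, 1.00 and 0.43, and Miox, of inositol breakdown, had 0.17, 0.76 and 3.65. Of 13 transcription factor genes linked to these transporters in kidney or liver 10 were measured, 3 positive and 0 negative on all arrays, with a median of 0.125. Foxa2, a factor of liver and gut endoderm, had 1.18, 1.23 and 0.70, and Ppara, a regulator of fatty acid breakdown, had 0.59, 0.14 and 0.43.

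Most erythroid markers lay on the same side as Slc22a16. Of 17 such genes 15 were measured, 11 positive and 0 negative on all arrays and 5 at least 2-fold throughout. The shares over all rows were 16.8% positive, 18.5% negative and 0.247% at least 2-fold throughout on the positive side. The erythroid medians were 0.45, 1.09 and 0.94 on arrays 1, 2 and 3. The embryonic globin gene Hbb-bh1 had 3.13, 5.26 and 3.81, and Ermap, of the red cell membrane, had 3.39, 3.80 and 3.34. Of the 4 with mixed signs, 2 had means on the other side: the erythroid transcription factor gene Gata1 (-1.54, -0.72 and 0.06) and the anion exchanger gene Slc4a1 (-0.70, -0.34 and 0.09). Without array 2 the median of the list's means was 0.644, against 1.01 with all arrays. The list of leukocyte markers held 13 symbols, of which Emr1 and Adgre1 name the same gene. Its 11 measured genes had a median of 0.099, with 5 positive and 1 negative on all arrays. Among them the microglia and macrophage gene Aif1 had 0.47, 0.13 and 0.24, while Itgam had -0.04, -0.90 and -1.31. Germ cell and gonad markers had a median of -0.263 over 10 genes, 0 positive and 5 negative on all arrays, and neuron markers one of -0.24 over 9 of 11, 2 positive and 4 negative. The neuron median was 0.037 without array 1 and -0.005 without array 2. The part of blood cells in the Slc22a16 ratio was not tested.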

How the data were processed

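The deposited values are log2 ratios of the 2 channels of each array, 13.5 and 11.5 dpc kidney. Per the labels, the authors quantified the scans in ImaGene 5.5. For their normalization the labels hold 2 accounts, print-tip loess with a step between arrays in R, and a Lowess curve through 20% of the data with control values under 10 set to 10; the sources used here do not say which one made the deposited log2 values. That the base is 2 was found from the values in a middle range. For 100% of them, 2 raised to the value gave a whole multiple of 0.001, within 0.02 of a step. The check left out values beyond that range, among them those of Slc22a16.

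Of 22702 features, 883 control or blank ones were left out, and the 20386 gene features with values on all 3 arrays were kept and averaged by symbol, giving 19015 rows (14433 named). The platform annotation can be old; symbols were checked by Entrez identifier against the GRCm38.p6 gene table (15970 matched, 0 renamed). No filter on signal was possible. Array 3 was used as deposited; its Pearson correlation across rows was 0.116 with array 1 and -0.117 with array 2, and arrays 1 and 2 had 0.274 (rows are not independent replicates). The number of arrays limits the precision.

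Limma 3.58.1 in R 4.3.3 tested each row's mean against 0 (two-sided, Benjamini-Hochberg), a procedure checked on simulated data. The simulation gave every row and array the same spread, unlike these data, so it does not show how the test behaves here. Members and lists were chosen with earlier results of these data known. Named genes were all members, the 5 nearest to Slc22a16, and up to 2 highest and 2 lowest means per list among genes with 1 sign on all arrays; library surroundings, genome neighbours, Gata1, Slc4a1 and promoter motifs were chosen after the values had been seen. Alternatives were leaving out each array, turning array 3, median centring, scaling, quantile normalization, single features, a dye term, other fold thresholds and, added later, a running median over 101 features along the library.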

Additional observations from a re-analysis of the deposited data

How the results depend on the processing

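Slc22a16 was the 1 member at least 2-fold throughout under each alternative run on that count but 1 (a dye term was run only on limma's counts): with array 3 turned its mean log2 ratio was 0.784 and the count was 0. Its mean lay between 2.39 and 2.41 without 1 array and was 2.41 after median centring, 2.38 after the running median and 2.85 after quantile normalization. The count of members with 1 sign on all arrays, 3, ran from 3 to 6 with 1 array left out, as fewer signs had to agree, and was 2 with array 3 turned. With array 3 turned, 4 of the 8 member means took the opposite sign: Slc22a4 (0.222), Slc22a5 (0.103), Slc22a6 (0.151) and Slc22a18 (-0.108). Without array 3, 3 did: Slc22a4 (0.101), Slc22a5 (0.045) and Slc22a6 (0.087). With array 3 turned, 4 list medians took the opposite sign, those of proximal tubule markers (0.088), Slco transporters (0.217), lipocalin 2 and iron uptake (-0.031) and the neighbours of Slc22a18 (0.006), while the erythroid median was 0.241. Leaving out 1 array did so for monoamine handling (0.073) and neuron markers (0.037) without array 1, carnitine and fatty acid entry (-0.166) without array 2 and Slco transporters (0.151) without array 3. No alternative gave a row past limma's threshold (0 in each), and the rows at an unadjusted p under 0.05 numbered 736 to 2669. The count of rows at least 2-fold throughout, 130, was 42 with array 3 turned, between 266 and 341 with 1 array left out, 28 for a threshold of 3-fold and 479 for one of 1.5-fold. Each member has 1 feature, so averaging features altered none of them. The causes of these shifts were not tested beyond the fewer arrays or other threshold each setting uses.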
